A study of Homo sapiens with 6 samples.

Results

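The genes of the mitochondrial ribosome were described in HK2 cells with a knockdown construct for PGC-1alpha (shPGC-1alpha) and in control cells with one for GFP (shGFP). All named gene symbols that start with MRPL or MRPS and a digit were taken, which gave 78 of the 14884 named genes. Of these, 73 were protein-coding genes, 48 with an MRPL symbol (large subunit) and 25 with an MRPS symbol (small subunit). The other 5 were antisense RNAs or pseudogenes and are described apart. The subunit genes MRPL12, MRPS6, MRPS18C and MRPS24 were not analysed here.

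HK2 is a human kidney cell line, derived from proximal tubule epithelium and immortalised with papillomavirus oncogenes. The cells were transduced with a pLKO.1 lentivirus that held shGFP or shPGC-1alpha, and infected cells were selected with puromycin. Cells were harvested for RNA on day 5 from transduction, when selection had been over for 24 hours. Each group had 3 arrays, numbered as biological replicates 1 to 3, and both groups share the cell line, the vector and the selection. The labels name a single shRNA for each target and do not give the origin of the replicate cultures, so p-values speak only of the spread among these 6 samples, which may be technical.

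Mitochondrial ribosomes translate the few messages of mitochondrial DNA, which code for subunits of the respiratory chain and the ATP synthase. Their RNA is transcribed in the mitochondrion, whereas the proteins of both subunits are encoded in the nucleus, made in the cytosol and imported. PGC-1alpha is a coactivator known to work with NRF1, the ETS-family factor GABP, the oestrogen-related receptors (ERR) and YY1 on nuclear genes of mitochondria.

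The arrays gave log2 RMA values with array medians between 5.00 and 5.04, and their number limits the precision. PPARGC1A, the target of the shRNA, had 0 probe sets named here, so the knockdown was not checked in these data. Of 23 markers of proximal tubule epithelium 12 were named, of which the endocytic receptor genes CUBN and LRP2 lay below 4.43, the 20th percentile of the gene means, and 10 lay above it. In limma, 1 of the 12 was higher (PAX8) and 4 were lower (DPP4, EPCAM, KRT18 and MME) with shPGC-1alpha. The summed linear value of the 12 was 7477 to 7655 on the shGFP arrays and 7716 to 7827 on the shPGC-1alpha arrays. PAX8, the brightest of the 12, weighs most in that sum, with a mean log2 value of 11.44 (shGFP) and 11.82 (shPGC-1alpha). Of 5 leukocyte markers 2 were named, and their summed linear value, nearly all from the lysosomal gene CD68, was 2238 to 2341 with shGFP and 2766 to 2985 with shPGC-1alpha. The 3 endothelial markers named, of 4, summed to 57.9 to 63.6 and to 53.2 to 59.2, and DCN, the 1 fibroblast marker named of 6, lay at 12.6 to 14.8 and at 24.2 to 25.5. Their part in the results on ribosomal genes was not tested.

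Promoters are shown for 5 members whose transcripts changed, as the 250 bases before the RefSeq start of the gene (build GRCh38.p14), written 5′ to 3′ on the strand of the gene. MRPL11 and MRPL30 fell most among the members with an entry, MRPL33 rose most, and MRPL20 rose beside a lower antisense RNA. MRPS21 was the only called member with an entry that held an ERR motif. The called members MRPL15 and MRPL2 had no entry and were not searched. Capitals mark matches to 4 motifs searched on both strands, GCGCA then any base then GCGC for NRF1, AAGGTCA for ERR, CCGGAAG for ETS factors such as GABP and AAGATGGC for YY1. The windows are chr11:66438849-66439098 (minus strand), chr2:99180934-99181183 (plus strand), chr2:27771469-27771718 (plus strand), chr1:1407294-1407543 (minus strand) and chr1:150293611-150293860 (plus strand), in the order printed.
MRPL11: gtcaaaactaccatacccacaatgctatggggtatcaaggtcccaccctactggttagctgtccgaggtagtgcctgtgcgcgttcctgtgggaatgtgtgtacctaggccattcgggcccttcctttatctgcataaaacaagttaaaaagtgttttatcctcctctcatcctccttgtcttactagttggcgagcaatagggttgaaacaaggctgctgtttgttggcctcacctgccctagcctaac
MRPL30: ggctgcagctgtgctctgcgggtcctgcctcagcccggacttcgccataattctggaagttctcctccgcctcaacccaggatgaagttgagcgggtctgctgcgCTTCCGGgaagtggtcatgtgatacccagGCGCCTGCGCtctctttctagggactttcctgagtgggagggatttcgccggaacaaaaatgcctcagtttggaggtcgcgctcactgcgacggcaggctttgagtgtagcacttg
MRPL33: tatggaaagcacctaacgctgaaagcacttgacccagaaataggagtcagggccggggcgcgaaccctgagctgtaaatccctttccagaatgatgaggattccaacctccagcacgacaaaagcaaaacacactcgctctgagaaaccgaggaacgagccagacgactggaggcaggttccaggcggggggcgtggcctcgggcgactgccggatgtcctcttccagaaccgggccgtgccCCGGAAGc
MRPL20: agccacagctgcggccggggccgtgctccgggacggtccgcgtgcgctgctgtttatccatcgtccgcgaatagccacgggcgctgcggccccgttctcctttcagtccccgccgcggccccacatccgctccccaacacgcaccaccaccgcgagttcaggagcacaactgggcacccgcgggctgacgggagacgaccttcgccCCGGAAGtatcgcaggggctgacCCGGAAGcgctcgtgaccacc
MRPS21: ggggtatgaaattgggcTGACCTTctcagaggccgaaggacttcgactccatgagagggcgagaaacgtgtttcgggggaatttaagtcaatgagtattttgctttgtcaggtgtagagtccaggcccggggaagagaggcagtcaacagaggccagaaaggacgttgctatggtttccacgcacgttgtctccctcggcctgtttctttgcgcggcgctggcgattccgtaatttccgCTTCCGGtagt
The MRPL11 window holds none of the 4 motifs, whereas that of MRPL30 holds an NRF1 and an ETS match and those of MRPL33 and MRPL20 hold ETS matches close to the start.

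The mitochondrial ribosomal genes did not move together. With shPGC-1alpha, 5 of the 73 protein-coding members rose, 7 fell and 61 did not pass an adjusted p of 0.05 in limma, which was fitted on all named genes and adjusted by the Benjamini-Hochberg method over them. The same test called 21.8% of all 14884 named genes and 24.6% of the 11916 protein-coding genes, against 16.4% of the members. The share of members that rose, 6.85%, stood beside 9.58% of all genes and 11.1% of protein-coding genes, and the share that fell, 9.59%, beside 12.2% and 13.5%. The differences were small for most members: 42 of 73 (57.5%) lay within 0.1 log2 units of 0, compared with 36.9% of protein-coding genes, and the median size of a difference was 0.08 against 0.14. The groups did not overlap for 29 members (39.7%), whereas 43.1% of protein-coding genes and 38.7% of all genes showed the same. All 12 called members were among the 29. They were chosen by a test on the same arrays, so their lack of overlap, given below, adds no separate support. Under the other settings tried the number of members called ranged from 4 to 20.

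**Figure D1:**
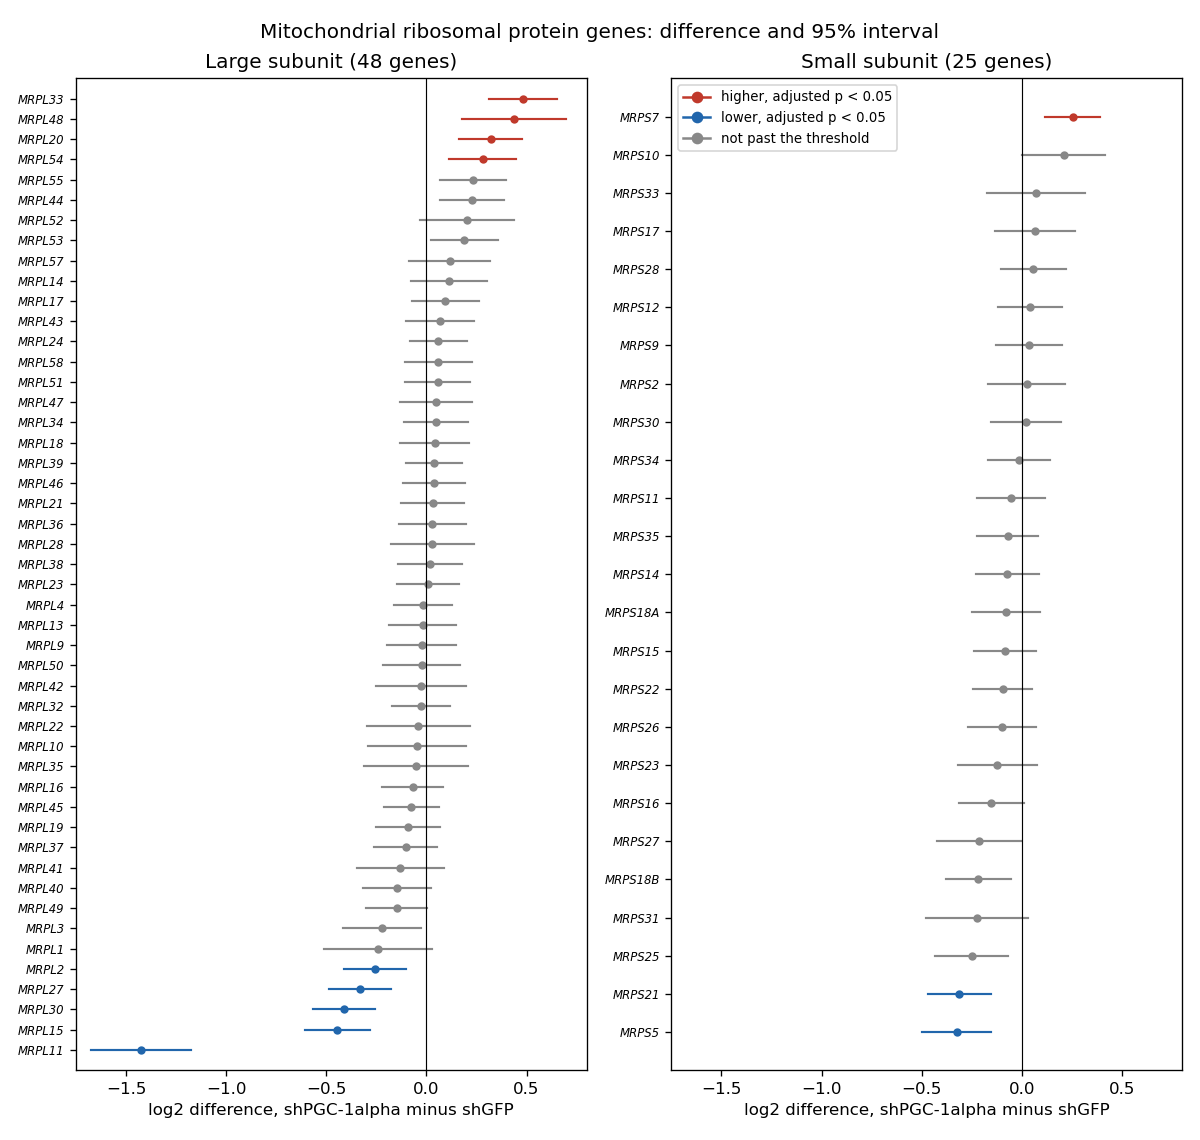
Log2 difference (shPGC-1alpha minus shGFP) of each of the 73 protein-coding members, large subunit on the left and small subunit on the right, with the 95% interval from limma, 3 arrays per group. MRPL11, at -1.42, stands alone at the lower end, and the other points lie between -0.45 and 0.48.

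The largest change was that of MRPL11, the protein at the base of the stalk on which translation factors dock. Its log2 value was 7.67, 7.51 and 7.61 on the shGFP arrays and 6.38, 6.14 and 6.0 on the shPGC-1alpha arrays. Every shPGC-1alpha array was more than 1 log2 unit below every shGFP array. The group means were 7.60 ± 0.08 (SD, n = 3) and 6.17 ± 0.19, so MRPL11 fell by 1.42 (SE 0.11), which is 2.68-fold, with an adjusted p of 0.00021 in limma. No other member differed by as much as 0.5, which 9.84% of protein-coding genes did.

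The other stalk genes measured did not follow MRPL11. MRPL54, a protein of the mitochondrial ribosome alone that lies near the stalk, had values of 6.02, 6.01 and 6.01 with shGFP and 6.34, 6.36 and 6.18 with shPGC-1alpha. Its shPGC-1alpha arrays were all higher, and it rose by 0.28 (SE 0.07; limma adjusted p 0.029), and with 1 array left out it passed only in the fit without shPGC-1alpha replicate 3. MRPL10, which anchors the stalk, and MRPL53 lay at -0.05 and 0.19 and did not pass.

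Large-subunit proteins with bacterial relatives held the remaining decreases of that subunit. MRPL15, a protein of the large-subunit core, gave 8.45, 8.37 and 8.33 with shGFP and 8.02, 7.90 and 7.90 with shPGC-1alpha. It fell by 0.45 (SE 0.07; limma adjusted p 0.0040) without overlap between the groups. MRPL30 gave 8.98, 9.12 and 8.99 with shGFP and 8.64, 8.62 and 8.60 with shPGC-1alpha, and it fell by 0.41 (SE 0.07; limma adjusted p 0.0047). Its 3 shPGC-1alpha arrays lay close together (SD 0.02) below all shGFP arrays.

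MRPL27 and MRPL2, which lie near the centre where peptide bonds are made, were lower by smaller amounts. MRPL27 gave 7.59, 7.51 and 7.64 with shGFP and 7.29, 7.24 and 7.22 with shPGC-1alpha, and it fell by 0.33 (SE 0.07; limma adjusted p 0.011). MRPL2 gave 9.39, 9.47 and 9.41 with shGFP and 9.22, 9.10 and 9.18 with shPGC-1alpha, and it fell by 0.25 (SE 0.07; limma adjusted p 0.032). The groups of both genes were apart. The call of MRPL2 was lost in 5 of the 6 fits with 1 array left out, holding only without shPGC-1alpha replicate 1, whereas that of MRPL27 held in all 6.

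Among the large-subunit genes that rose, MRPL33, a small protein with bacterial relatives, had the largest increase. It gave 7.62, 7.72 and 7.65 with shGFP and 8.17, 8.21 and 8.04 with shPGC-1alpha, a rise of 0.48 (SE 0.07) or 1.40-fold with a limma adjusted p of 0.0034. MRPL48, a protein of the central protuberance found in mitochondrial ribosomes, gave 6.63, 6.55 and 6.32 with shGFP and 7.06, 6.98 and 6.77 with shPGC-1alpha. The arrays of MRPL48 were spread widely, with an SD of 0.16 and 0.15 in the groups, which did not overlap. It rose by 0.44 (SE 0.11; limma adjusted p 0.028). With 1 array omitted it passed only when that was shGFP replicate 1 or shPGC-1alpha replicate 3.

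MRPL20, a protein that binds ribosomal RNA early in assembly of the large subunit, gave 7.47, 7.45 and 7.44 with shGFP and 7.86, 7.70 and 7.76 with shPGC-1alpha. All shPGC-1alpha arrays were above all shGFP arrays, and it rose by 0.32 (SE 0.07; limma adjusted p 0.014). It no longer passed when shGFP replicate 2 or shGFP replicate 3 was omitted.

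In the small subunit, MRPS5, a protein near the entrance of the messenger channel, and MRPS21 were lower. MRPS5 gave 9.46, 9.41 and 9.38 with shGFP and 9.10, 9.19 and 8.99 with shPGC-1alpha, and it fell by 0.33 (SE 0.07; limma adjusted p 0.019). MRPS21 gave 10.83, 10.87 and 10.76 with shGFP and 10.53, 10.56 and 10.44 with shPGC-1alpha, and it fell by 0.31 (SE 0.07; limma adjusted p 0.015). Neither gene had overlapping groups. With 1 array omitted, MRPS5 passed only when that was shGFP replicate 3 or shPGC-1alpha replicate 2, and MRPS21 failed when it was shGFP replicate 2.

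MRPS7, an RNA-binding protein of the head of the small subunit, was the small-subunit gene that rose. Its values were 8.98, 9.01 and 8.99 with shGFP and 9.26, 9.26 and 9.21 with shPGC-1alpha, a tight set in each group that did not overlap. The rise was 0.25 (SE 0.06; limma adjusted p 0.020), a 1.19-fold change, and it passed without shPGC-1alpha replicate 3 but not without any of the other 5 arrays.

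**Figure D2:**
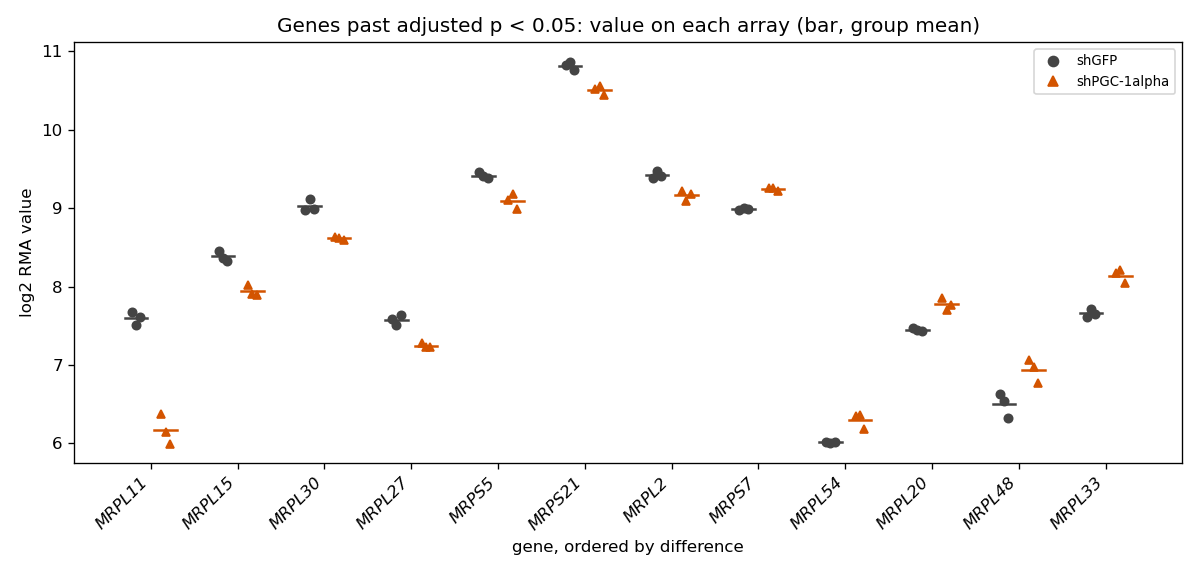
Log2 RMA value on each array of the 12 protein-coding members with a limma adjusted p under 0.05, ordered by difference; circles are shGFP, triangles shPGC-1alpha and bars the group means of 3 arrays. The 12 were chosen by that p on the same arrays, and the groups do not overlap for any of them, nor for 43.1% of all protein-coding genes. The gap is widest for MRPL11, from 6.38 to 7.51.

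The large subunit had 4 genes higher and 5 lower of 48 (18.8% called), and the small subunit 1 higher and 2 lower of 25 (12% called). The median log2 difference was 0.01 for the large and -0.07 for the small subunit, with -0.01 for all protein-coding genes and -0.02 for all named genes. Of the large-subunit genes 25 had a difference above 0 and 23 below it, while of the small-subunit genes 9 lay above and 16 below. Of the 11916 protein-coding genes 5644 lay above 0 and 6272 below. Averaged over its genes, the large subunit had a mean log2 value of 7.67 ± 0.02 (SD of 3 arrays) with shGFP and 7.65 ± 0.05 with shPGC-1alpha. The small-subunit mean was 8.20 ± 0.02 with shGFP and 8.14 ± 0.04 with shPGC-1alpha. On single arrays the small-subunit mean was 8.19, 8.22 and 8.19 with shGFP and 8.16, 8.16 and 8.09 with shPGC-1alpha, without overlap, and the large-subunit mean was 7.68, 7.68 and 7.66 against 7.71, 7.65 and 7.60, with overlap. The shPGC-1alpha replicate 3 array was the lowest of the 6 in both means and in the mean of all protein-coding genes. That last mean was 6.609, 6.614 and 6.619 with shGFP and 6.605, 6.602 and 6.586 with shPGC-1alpha, also without overlap. RMA aligns the arrays, so these means show change relative to the other transcripts.

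**Figure D3:**
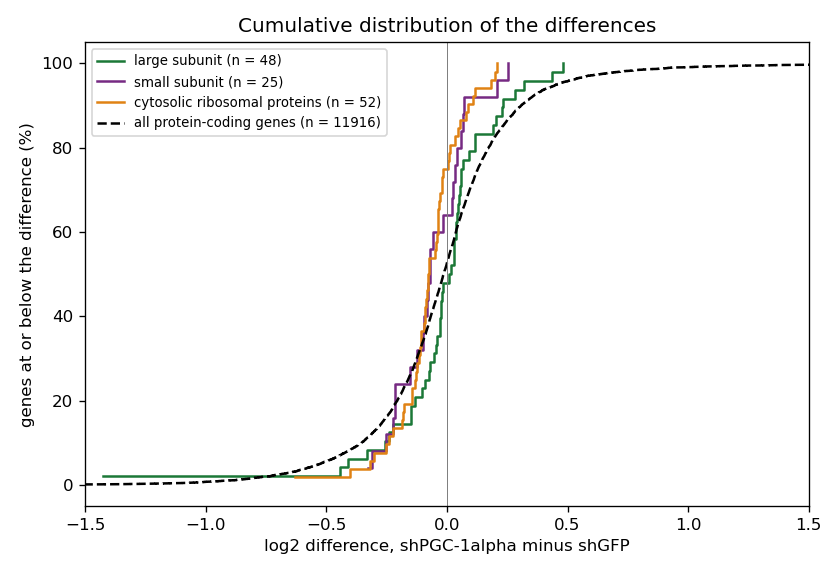
Cumulative share of genes (percent) at or below each log2 difference, shPGC-1alpha minus shGFP, for the large subunit, the small subunit, 52 cytosolic ribosomal protein genes and all 11916 protein-coding genes; the axis ends at 1.5 on each side. The ribosomal curves are steeper than the dashed curve of all genes, and the medians are 0.01, -0.07, -0.08 and -0.01 in that order.

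The members were also sorted by origin, beside the 24.6% of protein-coding genes called. Of 29 large-subunit genes with bacterial relatives 2 rose (MRPL33 and MRPL20) and 5 fell (MRPL11, MRPL15, MRPL30, MRPL27 and MRPL2), which is 24.1% called, with a median of -0.02. Of 21 large-subunit genes listed as mitochondria-specific, 2 rose (MRPL48 and MRPL54) and 0 fell in limma, and the median was 0.04. At an unadjusted limma p under 0.05, 4 of the 21 were higher and 0 lower. By that measure 1985 of all 11916 protein-coding genes were higher and 2386 lower. This second set counts MRPS18A and MRPS30, whose proteins sit in the large subunit in spite of their symbols. Of 12 small-subunit genes with bacterial relatives 1 rose and 2 fell, 25% called, with a median of -0.02. The share called among genes with bacterial relatives was thus close to that of protein-coding genes in both subunits. Of 11 small-subunit genes listed as mitochondria-specific 0 passed in limma, with 0 higher and 3 lower at an unadjusted p under 0.05. Their median was -0.10, and MRPS18B was 1 of the 3. MRPS18A and MRPS18B share the S18 name with MRPS18C, which was listed with bacterial relatives, so their place in these lists is uncertain. The difference between these sets was not tested.

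By place in the ribosome, 7 of the 8 genes around the exit of the peptide tunnel lay within 0.1 log2 units of 0. So did 57.5% of the 73 members and 36.9% of protein-coding genes. The differences of the 8 ran from -0.07 for MRPL45, which binds the inner membrane, to 0.23 for MRPL44, an RNase III-like protein. None of the 8 passed in limma, beside 24.6% of protein-coding genes called. At an unadjusted limma p under 0.05, 1 of the 8 was higher, beside 1985 higher and 2386 lower of 11916 protein-coding genes. Of the 8 genes of the central protuberance, MRPL48 rose and MRPL27 fell, 25% called and so near the share of protein-coding genes. The other 6 lay between -0.15 for MRPL40 and 0.20 for MRPL52. Of 4 genes of the small-subunit head, MRPS7 rose, again 25% called, and MRPS10, MRPS9 and MRPS14 lay at 0.21, 0.04 and -0.07.

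The members that did not pass had differences between -0.25 and 0.23, and the ends of their 95% intervals ranged from -0.51 (MRPL1) to 0.44 (MRPL52). Nearest to the threshold were MRPL44 at 0.23 (SE 0.07; limma adjusted p 0.051), MRPL55 at 0.23 (SE 0.07; limma adjusted p 0.054) and MRPS25 at -0.25 (SE 0.08; limma adjusted p 0.060). MRPL44 gave 8.30, 8.46 and 8.39 with shGFP and 8.65, 8.61 and 8.58 with shPGC-1alpha, and MRPS25 gave 7.47, 7.41 and 7.33 against 7.27, 7.11 and 7.08. Neither gene had overlapping groups, although both missed the threshold. MRPL1, a protein of the mobile stalk near the exit site, had the widest spread of the members. It gave 6.58, 6.39 and 6.28 with shGFP and 6.30, 6.26 and 5.97 with shPGC-1alpha, with overlap, a difference of -0.24 (95% interval -0.51 to 0.03). MRPS31 lay at -0.22 and MRPS10 at 0.21, and neither passed. MRPL23, the dimmest member with a mean of 5.74, lay at 0.01 (95% interval -0.15 to 0.16), and 0 of the 73 members had a mean under that percentile of 4.43. The within-group SD of a member had a median of 0.07, against 0.10 for protein-coding genes.

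Of the 78 symbols, 4 had more than 1 probe set. MRPS18B had 7, all with identical values and a difference of -0.22, so they are 1 measurement. The second probe set of MRPS16 lay at -0.19 beside -0.15 for the brighter, and that of MRPS2 at 0.00 beside 0.02. The second probe set of MRPL44 was dim, with a mean of 2.27 and a difference of 0.05 (SE 0.19), beside 0.23 (SE 0.08) for the brighter in a fit over all probe sets.

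The number of calls depended on the setting, while 4 genes passed throughout. MRPL11, MRPL15, MRPL30 and MRPL33 passed in all 14 alternative settings, with differences of -1.53 to -1.34 for MRPL11, -0.48 to -0.41 for MRPL15, -0.44 to -0.37 for MRPL30 and 0.45 to 0.53 for MRPL33. MRPL27 was lost in 1, when both the fit and the adjustment covered all 53617 probe sets. With shGFP replicate 2 left out, 5 members passed (6.85%), with 15.6% of all genes called, and with trend and robust variance 20 passed (27.4%), with 26.7% of all genes called.

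**Figure D4:**
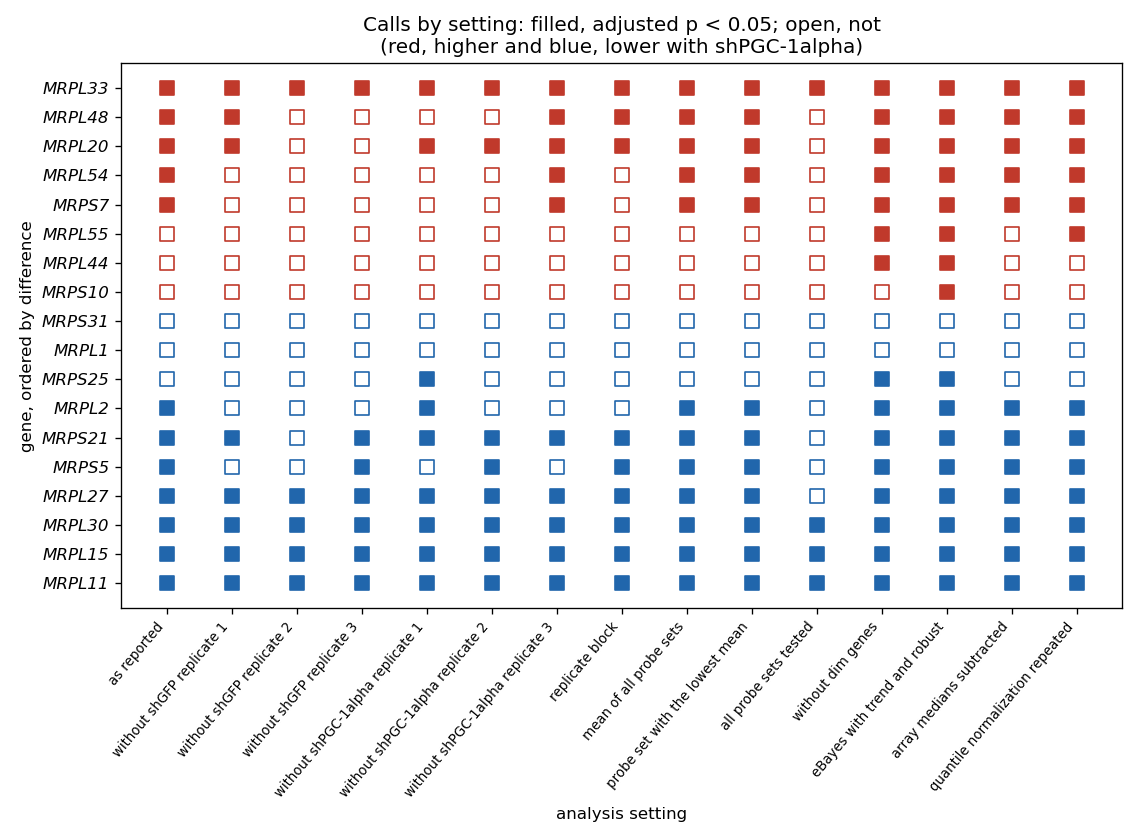
Calls of the 12 members past the threshold and the 3 largest differences in each direction short of it, by analysis setting; filled squares have a limma adjusted p under 0.05, open squares do not, red is higher and blue lower with shPGC-1alpha. Only the lines of MRPL33, MRPL30, MRPL15 and MRPL11 are filled throughout, and MRPS31 and MRPL1 are open throughout.

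The 5 antisense RNAs and pseudogenes with member symbols included 2 that passed, beside 21.8% of all 14884 named genes. A set of 5 is too small to compare with that share. MRPL20-AS1, a noncoding RNA from the opposite strand that overlaps MRPL20, gave 6.07, 6.28 and 6.50 with shGFP and 5.91, 5.83 and 5.73 with shPGC-1alpha. It fell by 0.46 (SE 0.12; limma adjusted p 0.027), while MRPL20 rose by 0.32. With 1 array omitted, MRPL20-AS1 passed only when that was replicate 1 of either group. Whether the array keeps the strands of this pair apart is not given in the sources used here. MRPL23-AS1 lay at -0.25 and did not pass, and MRPL23 lay at 0.01.

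MRPL42P5, a pseudogene of MRPL42 that lies within CCDC32, gave 3.63, 3.47 and 3.73 with shGFP and 4.30, 4.08 and 4.08 with shPGC-1alpha. It rose by 0.55 (SE 0.10; limma adjusted p 0.0068), with both group means below the 20th percentile of 4.43. MRPL42 itself lay at -0.03 (95% interval -0.25 to 0.20), whereas the surrounding gene CCDC32 rose by 0.36 (SE 0.07; limma adjusted p 0.011), from 6.17 ± 0.08 (SD, n = 3) to 6.52 ± 0.06. CCDC32 is named because it surrounds the pseudogene, a choice made once the values were known. The pseudogenes MRPL45P2 and MRPS31P5 lay at 0.05 and 0.10, and the genes they resemble, MRPL45 and MRPS31, at -0.07 and -0.22. The values of a pseudogene and its parent are uncertain, because their probes can share transcripts.

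**Figure D5:**
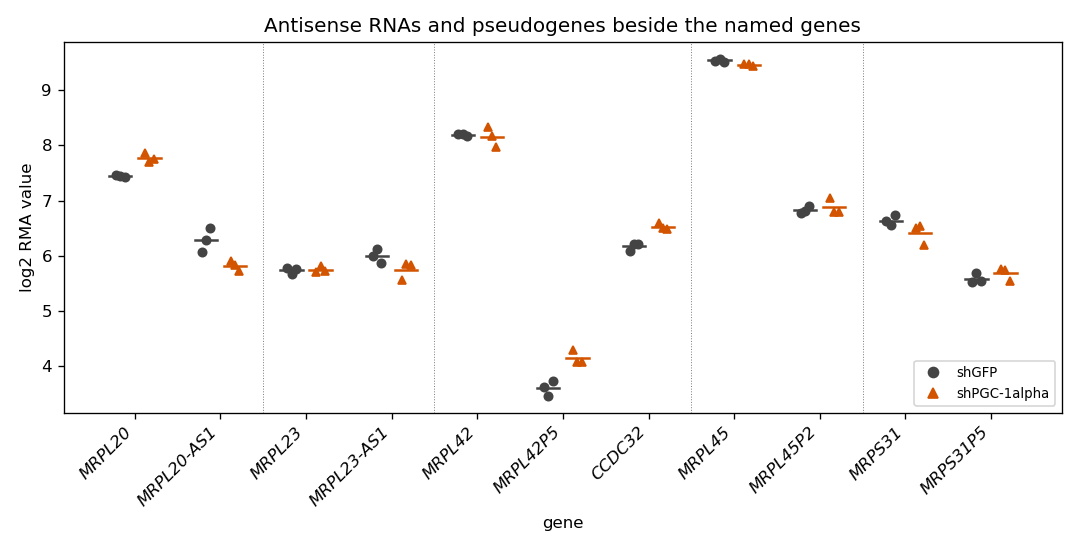
Log2 RMA value on each array for the antisense RNAs and pseudogenes beside the genes they overlap or resemble; circles are shGFP, triangles shPGC-1alpha and bars the group means of 3 arrays, and dotted lines part the sets. MRPL20 is higher and MRPL20-AS1 lower with shPGC-1alpha, and MRPL42P5 and CCDC32 are higher while MRPL42 overlaps.

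Promoter motifs were counted in the RefSeq window of 300 bases, 250 before and 50 after the first listed start, which was held for 65 members and for 9706 protein-coding genes measured here. The ETS motif CCGGAAG was found in 28 of the 65 members (43.1%), against 15.6% of all windows. The YY1 motif AAGATGGC was found in 19 (29.2%), against 4.34% of all windows. The NRF1 motif was found in 8 (12.3%, against 9.10%) and the ERR motif AAGGTCA in 3 (4.62%, against 2.90%). An ETS match lay in 17 of 41 large-subunit and 11 of 24 small-subunit windows, so both subunits carried it at like shares, 41.5% and 45.8%. None of the 4 motifs was found in 21 members. The motifs were searched on both strands and do not contain one another.

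The motifs stood before genes that changed in either direction and before genes that did not. The ETS motif was in 4 of the 5 members that rose (MRPL33, MRPL20, MRPL48 and MRPL54), in 3 of the 5 that fell and had a window (MRPL30, MRPL27 and MRPS21), and in 21 of the 55 that did not pass (38.2%). The median difference of members with the ETS motif was 0.02 and of those without it -0.02. The NRF1 motif was in MRPL30 among the members that fell and in 7 of those that did not pass. The ERR motif was in MRPS21, at bases -233 to -227 from the start, and in 2 that did not pass. The YY1 motif was in MRPL20 and MRPS7, from bases 15 and 19 after the start, outside the stretch printed above, and in 17 that did not pass. A match is a description of these letters and says nothing of binding.

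Many members share a promoter region with a gene on the other strand. Of 65 members 27 (41.5%) had such a gene whose start lay within 1000 bases of their own, against 25.9% of protein-coding genes. MRPL46 and MRPS11 are such a pair of members, and they lay at 0.04 and -0.06. Of the 14 neighbours with a value here, which include MRPL46 and MRPS11, 0 passed in limma, beside 24.6% of protein-coding genes. None had an unadjusted limma p under 0.05, beside 1985 higher and 2386 lower of 11916 protein-coding genes. The differences of the 14 lay between -0.10 and 0.17. Only 1 member past the threshold, MRPL27, had a measured neighbour, so the 14 say little of neighbours of changed members. EME1, an endonuclease subunit gene that starts 45 bases from MRPL27, lay at 0.02 (SE 0.08; limma adjusted p 0.88), whereas MRPL27 fell by 0.33.

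The other genes of mitochondrial protein synthesis measured here also moved both ways, with 24.6% of protein-coding genes called by the same test. Of 3 further subunit genes measured, DAP3, a GTP-binding protein of the small subunit, rose by 0.39 (SE 0.07; limma adjusted p 0.0076), and CHCHD1 and PTCD3 lay at 0.16 and 0.03. Of 28 listed ribosome assembly genes 24 were measured, and 2 rose and 2 fell, 16.7% called, with a median of -0.10. MRM1, which methylates the large ribosomal RNA, fell by 0.62 and RCC1L by 0.39, while the GTPases GTPBP10 and MTG2 rose by 0.35 and 0.33. With 1 array omitted, the number of assembly genes that rose was 0 when it was shGFP replicate 2 or shPGC-1alpha replicate 1 and 1 for each of the other arrays, and the number that fell was 4 without shGFP replicate 1 and 2 otherwise.

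Of 17 listed translation factors 12 were measured, without TUFM, TSFM, GFM1 and GFM2. Of the 12, 1 rose and 2 fell, 25% called beside 24.6% of protein-coding genes, with a median of 0.02. MTFMT, which formylates the initiator methionyl-tRNA, fell from 7.37 to 6.42, by 0.95 (SE 0.14; limma adjusted p 0.0030), and RMND1 fell by 0.37. Only 1 of the 12 fell when replicate 2 of either group was omitted. GUF1, a ribosome-bound GTPase, rose by 0.31, and with 1 array omitted it passed only when that was shGFP replicate 2 or shPGC-1alpha replicate 3. Of 22 listed genes of aminoacyl-tRNA synthesis only 4 were measured, 25% called. GARS1, which serves both the cytosol and mitochondria, rose by 0.45, and QRSL1 lay at -0.24. Of 21 listed genes of mitochondrial RNA synthesis and processing 14 were measured, without TFAM and TFB2M, and 14.3% were called. HSD17B10, a subunit of mitochondrial RNase P, rose by 0.51 and MTERF2 fell by 0.51. The median was -0.05, and 2 fell without shPGC-1alpha replicate 1.

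Genes with symbols of cytosolic ribosomal proteins gave a comparison with the other ribosome of the cell. They were chosen by symbol alone and include like-named paralogues such as RPL39L and RPL7L1, both among the 4 that fell. Of 52 measured, 4 fell (7.69%, beside 13.5% of protein-coding genes) and 0 rose (beside 11.1%) in limma. At an unadjusted limma p under 0.05, 9 were lower and 1 higher, beside 2386 lower and 1985 higher of 11916 protein-coding genes. Of the 52 differences 39 were below 0, beside 6272 of the 11916, with a median of -0.08. RPS15A fell by 0.63 (SE 0.08; limma adjusted p 0.0017), RPL39L by 0.40, RPL29 by 0.32 and RPL7L1 by 0.25. With 1 array omitted, 1 fell when it was replicate 2 of either group, 2 when it was shGFP replicate 1, shGFP replicate 3 or shPGC-1alpha replicate 3, and 5 when it was shPGC-1alpha replicate 1. Cytosolic ribosomal genes have many near-identical processed pseudogenes, so their values are uncertain.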

How the data were processed

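Total RNA of 6 samples was labelled as biotinylated cRNA and hybridised to Affymetrix expression arrays. The authors deposited log2 values for 53617 probe sets, and the submitters' processing notes name RMA and Affymetrix Expression Console, without versions. RMA equalises the arrays' distributions, so a shift shared by most transcripts would be reduced. The sample titles gave the group and replicate number of each array.

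The platform annotation gave 1 symbol for 16098 probe sets, which is 14884 genes, and 37519 were not named here. For genes with several probe sets the one with the highest mean was used. The 2 groups were fitted by lmFit and eBayes (limma 3.58.1, R 4.3.3; no filter, no replicate block), with Benjamini-Hochberg adjustment over 14884 genes and a threshold of 0.05. An exact permutation test of 3 against 3 arrays cannot go below 0.10. In simulated data on 14884 genes with 200 changed, the fit recovered 40% of changes of 0.5 log2 units and 90% of changes of 1, with 4 false calls, and called 0 genes when none was changed. The simulation changed far fewer genes than the 3243 called in the data, and the Benjamini-Hochberg cut is then stricter. Its recovery shares therefore need not hold for these data.

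The members and lists were chosen with earlier results of these data known. Named are the members past the threshold, the 3 largest differences each way among the rest, the dimmest and the most variable member, those with several probe sets, neighbours of changed members, and in other lists up to 4 called genes or else the 2 with the smallest p. A few further members are named by their place in the ribosome. Each array left out, a replicate block, other probe set choices, other scalings, another variance model and a filter were tried.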

Additional observations from a re-analysis of the deposited data

How the results depend on the processing

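No member past the threshold changed direction in any setting tried. The median of the large subunit lay on either side of 0 and that of the small subunit stayed below 0. The counts of calls also moved. With the fit and adjustment over all probe sets, 767 named genes were higher and 970 lower. There 1 member rose and 3 fell, all 4 in the large subunit (1 and 3), with 0 and 0 in the small. With trend and robust variance 9 members rose and 11 fell, with 7 large-subunit and 2 small-subunit genes higher and 5 small-subunit genes lower. Without dim genes 4 small-subunit genes were lower. Whether arrays with the same replicate number were handled together is not given in the labels. Their deviations from the group means correlated at 0.09, 0.09 and 0.01 for replicates 1, 2 and 3. The replicate 1 and 2 arrays of both groups correlated best with their own number, and the replicate 3 arrays did not. With 3 arrays per group these correlations cannot decide whether the arrays were paired. With the replicate block 3 members rose, with 0 of the small subunit, and the block changed no count over all genes by over 1.5 times.

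With 1 array left out, all genes higher numbered 1011 to 1170 and lower 1301 to 1502. Members higher ranged from 1 to 5 and lower from 4 to 7. The large subunit had 1 to 4 higher and 4 to 5 lower, and the small subunit 0 to 1 higher and 0 to 2 lower. The subunit medians ranged from -0.01 to 0.03 (large) and from -0.09 to -0.05 (small). Fewer arrays or more tests tend to give fewer calls, and the fit over all probe sets also estimated the variances anew. In the simulated data 2% of changes of 0.25 log2 units were recovered. With only 200 genes changed there, this share need not hold for these data.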
